A study of Mus musculus with 4 samples.

Results

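Pericyte-like cells were picked out of 4 single-cell RNA-sequencing libraries of cultured mouse fat cells by their own transcripts, and 52 of 28262 cells, or 0.184%, met the rule. A cell was a droplet barcode with 5000 to 75000 unique molecular identifiers (UMIs, tags by which copies of 1 captured RNA molecule are counted once), 200 to 7500 genes and under 10% mitochondrial UMIs. To be a member it also needed at least 2 UMIs of Rgs5, at least 1 UMI in 3 or more of Adgrf5, Ednra, Trpc6, Sparcl1 and Mmp9, and fewer than 3 of the endothelial genes Pecam1, Cdh5, Emcn, Cd93 and Egfl7 with a UMI. All other cells within the same limits served as the comparison. Because the members were selected on measured counts of these 11 genes, every difference between members and other cells below is a description and carries no test.

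The study asked how de-differentiated fat (DFAT) cells differ from cells of the stromal vascular fraction (SVF), and how the inguinal and epididymal depots differ in this. The iWAT_DFAT and eWAT_DFAT libraries hold cells grown from the floating adipocyte layer of inguinal and epididymal white fat by ceiling culture, in which the adipocytes attach to the upper wall of a filled flask and lose their lipid. Whether the pericyte-like cells of these libraries came from adipocytes was not tested. The iWAT_SVF and eWAT_SVF libraries hold the pelleted stromal vascular cells of the same depots after primary culture, which the study calls ASPCs, for adipose stem and progenitor cells. All 4 came from male C57BL/6J mice on chow diet, with no transgene named, and the adherent cells were detached with trypsin, stained with 7-AAD and sorted. Age and the number of mice pooled were not given in the sources used here. There was 1 library per group and so no replicate: intervals below are exact 95% intervals for counting error, and the spread between cultures is unknown.

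Pericytes are the mural cells of capillaries and venules: they lie in the basement membrane they share with endothelial cells, and they respond to endothelial PDGF-B through the receptor Pdgfrb. Their contractile state is set by receptors for endothelin and angiotensin, by calcium and potassium channels and by the nitric oxide, guanylate cyclase and protein kinase G route, and Notch3 is the Notch receptor typical of mural cells. In white fat they line the dense capillary bed, and mural cells have been discussed as a source of adipocyte precursors. Rgs5, the gene on which the rule turns, encodes a GTPase-activating protein that shortens signalling through G-protein-coupled receptors, and it is among the most used pericyte markers.

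The promoters of 4 genes described below are shown: those of Rgs5, which every member had to hold, of Trpc6, a receptor-operated calcium channel among the further markers, and of Gucy1a1 and Gucy1b1, the neighbouring genes of the α and β subunits of soluble guanylate cyclase. Both subunit genes were higher in members of every library, though Gucy1a1 rested on 1 UMI in iWAT_SVF. Each RefSeq window of build GRCm38.p6 runs from 250 bases before to 50 bases after a transcription start, 5′ to 3′ on the strand of the gene. The windows lie at chr1:169655251-169655550 (Rgs5, plus strand), chr3:82145024-82145323 (Gucy1a1, minus), chr3:82074662-82074961 (Gucy1b1, minus) and chr9:8543892-8544191 (Trpc6, plus). Both strands were searched for TGGGAA, the core bound by Rbpj, the DNA-binding partner of Notch, and for the CArG box bound by serum response factor. Capitals mark a match, which reads TTCCCA where it lies on the other strand.
Rgs5: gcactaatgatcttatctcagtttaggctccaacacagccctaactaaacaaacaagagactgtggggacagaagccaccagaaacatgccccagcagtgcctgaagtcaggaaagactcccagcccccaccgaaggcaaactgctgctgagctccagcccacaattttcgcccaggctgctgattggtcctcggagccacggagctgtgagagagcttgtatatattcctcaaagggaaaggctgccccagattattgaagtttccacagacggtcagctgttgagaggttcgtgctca
Gucy1a1: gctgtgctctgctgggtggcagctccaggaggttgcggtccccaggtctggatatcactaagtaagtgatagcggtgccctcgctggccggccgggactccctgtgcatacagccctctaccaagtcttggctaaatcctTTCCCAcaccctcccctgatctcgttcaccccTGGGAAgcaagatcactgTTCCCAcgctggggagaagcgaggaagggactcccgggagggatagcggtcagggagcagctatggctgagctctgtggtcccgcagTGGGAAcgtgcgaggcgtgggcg
Gucy1b1: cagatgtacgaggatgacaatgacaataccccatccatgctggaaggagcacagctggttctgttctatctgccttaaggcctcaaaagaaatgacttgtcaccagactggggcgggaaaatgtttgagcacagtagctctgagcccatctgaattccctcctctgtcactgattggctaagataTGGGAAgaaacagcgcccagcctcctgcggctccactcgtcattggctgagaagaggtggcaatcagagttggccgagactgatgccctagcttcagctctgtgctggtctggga
Trpc6: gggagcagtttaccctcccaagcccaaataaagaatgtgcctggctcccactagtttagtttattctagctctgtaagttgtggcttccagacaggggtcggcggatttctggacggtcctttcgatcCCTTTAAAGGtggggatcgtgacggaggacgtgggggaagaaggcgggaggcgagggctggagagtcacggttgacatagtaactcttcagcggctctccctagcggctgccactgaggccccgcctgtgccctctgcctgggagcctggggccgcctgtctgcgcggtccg

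The Gucy1a1 window held 4 matches of TGGGAA, beginning at positions -110, -78, -60 and 28 from the start, and the Gucy1b1 window held 1, at -65. A second annotated start of Gucy1a1, at chr3:82145601-82145900, held none. The Trpc6 window held a CArG box at -122, and the Rgs5 window held neither motif, as did that of Notch3. Among all 32851 promoters of the table, 25.6% held TGGGAA and 1.63% a CArG box. Of the 33 genes higher in members of every library, 24 matched the table with 30 promoters, of which 33.3% held TGGGAA. A match describes letters in a window and says nothing of binding. Both cyclase genes lie on the minus strand of chromosome 3, Gucy1b1 at 82032006 to 82074689 and Gucy1a1 at 82092427 to 82145789, and Rgs5 lies on the plus strand of chromosome 1 at 169655501 to 169695813.

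The libraries held 211396227 to 242282812 UMIs each over 32285 genes, with 6464 to 7629 cells within the limits. Between 13 and 20 cell barcodes were shared by any pair of libraries, and 0 of them belonged to members. Scrublet, which scores each cell against simulated doublets, marked 0 to 3 cells per library by its own threshold and so made no usable call. The top 0.8% of scores per 1000 cells were therefore taken as doublets in an alternative. That alternative removed 3 of the 43 eWAT_DFAT members and 0 of the other 9, and the median score of the eWAT_DFAT members was 0.0226 against 0.0614 in the other cells.

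Most pericyte-like cells came from the eWAT_DFAT library. It held 43 members among 6464 cells, or 0.665% (95% interval 0.482 to 0.895%). The iWAT_DFAT library held 4 of 7629, or 0.0524% (0.0143 to 0.134%), the eWAT_SVF library 4 of 6745, or 0.0593% (0.0162 to 0.152%), and the iWAT_SVF library 1 of 7424, or 0.0135% (0.000341 to 0.075%). The interval of eWAT_DFAT lay above those of the other 3 libraries, which overlapped one another. Thus 82.7% of all members were eWAT_DFAT cells. The rule was not equally easy to meet in each library. In other cells Mmp9 stood at 32.4 CPM in iWAT_DFAT, 4.54 in eWAT_DFAT, 0.361 in iWAT_SVF and 0.0355 in eWAT_SVF. In iWAT_SVF 37 cells had 2 or more Rgs5 UMIs, of which 30 had 0 or 1 further marker and 6 had 2. Notch3 stood at 38.2 CPM in these 37, against 9.18 CPM in all iWAT_SVF cells but the member. With 1 culture per group the share of a depot, of a culture type and of a single culture cannot be told apart.

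In eWAT_DFAT the members were shallower than the other cells. The 43 eWAT_DFAT members held 7396 to 54106 UMIs with a median of 18865, against 27480 in the other cells of the library, and a median of 4643 genes against 5404. Their median share of mitochondrial UMIs was 2.01%, against 1.95% in the others. In the SVF libraries members were not shallower: the iWAT_SVF cell held 30656 UMIs against a median of 24930, and the eWAT_SVF members a median of 27897 against 27617. In all, 971553 UMIs came from the eWAT_DFAT members, 116886 from those of eWAT_SVF, 74514 from those of iWAT_DFAT and 30656 from the single iWAT_SVF cell. Gene-level values therefore rest mainly on eWAT_DFAT, and the cells of the other libraries are also described singly.

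**Figure D1:**
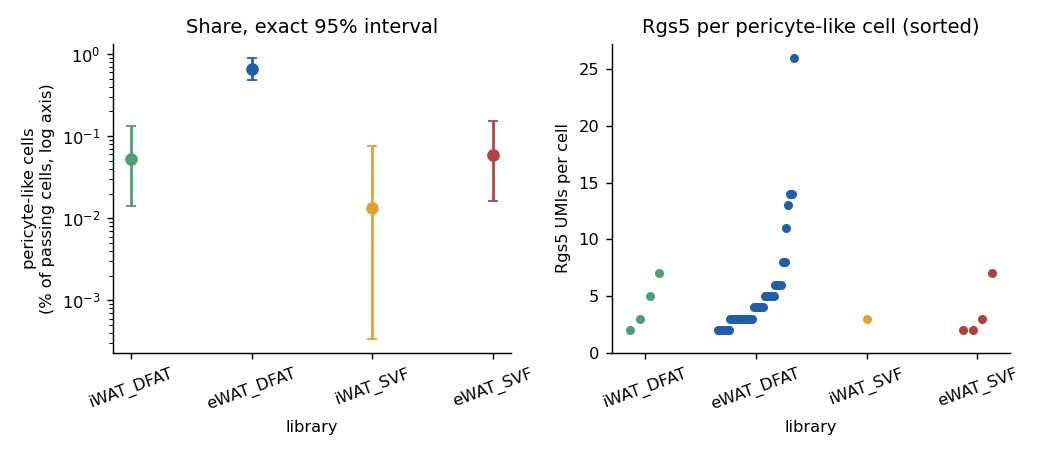
Left, pericyte-like cells as a percentage of all cells within the limits (log axis) for each library, with exact 95% intervals for counting error. Right, Rgs5 UMIs in each pericyte-like cell (1 point per cell, sorted within a library). The eWAT_DFAT share of 0.665% stands above the others, and its cells reach from the minimum of 2 UMIs to 26.

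Rgs5 itself, which the rule used, stood at 2 to 26 UMIs with a median of 4 in the 43 eWAT_DFAT members, or 51.9 to 1735 UMIs per 1000000 UMIs of the cell (CPM) with a median of 215. In the 4 iWAT_DFAT members it stood at 7, 5, 2 and 3 UMIs, in the 4 eWAT_SVF members at 7, 2, 3 and 2, and in the iWAT_SVF member at 3. Summed over members, the level was 228 CPM in iWAT_DFAT, 232 in eWAT_DFAT, 97.9 in iWAT_SVF and 120 in eWAT_SVF. In the other cells it was between 0.279 CPM in eWAT_SVF and 1.26 CPM in eWAT_DFAT, and free RNA, taken from droplets with 1 to 100 UMIs, held 1.76 CPM in eWAT_DFAT.

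The further markers of the rule were unevenly shared among eWAT_DFAT members. A UMI of Adgrf5, an adhesion receptor of vascular cells, was found in 39 of 43 members. Ednra, the endothelin A receptor, and Trpc6 were each found in 32, Sparcl1, a matricellular protein, in 30, and Mmp9, a gelatinase, in 23. Mmp9 had no UMI in any member of the SVF libraries. Of the endothelial genes, Pecam1 and Cdh5, which build the junctions of endothelial cells, had 0 UMIs in all 52 members, and 27 of the 43 eWAT_DFAT members held none of the 5.

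Membership ended within a gradient. Of the 43 eWAT_DFAT members, 7 had exactly 2 Rgs5 UMIs and 22 exactly 3 further markers, while 15 had 4 further markers, 6 had 5, and 17 had 5 or more Rgs5 UMIs. Just outside, 27 cells had 2 or more Rgs5 UMIs but only 2 further markers, 6 had 0 or 1 further marker, 13 had 1 Rgs5 UMI with 3 or more further markers, and 64 had none. The endothelial limit left out 7 cells. Notch3, which the rule did not use, stood at 185 CPM in the members with 2 Rgs5 UMIs and at 68.3 CPM in the cells with 2 further markers, against 4.97 CPM in all other cells. Pdgfra, the receptor that marks adipose stromal progenitors, stood at 23.1 and 10.8 CPM in those sets and at 95.6 CPM in all other cells. The cells just outside thus lay between the members and the rest in Notch3, but not in every gene. Those with 2 further markers stood at 39.5 CPM in Cspg4 and 71.9 in Mcam, below the members at 84.4 and 119. In Gucy1b1 and Myh11 they stood at 80.9 and 764 CPM, above the members at 70.0 and 487.

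The pericyte label was set beside 23 further identity genes that the rule did not use. This list was written with earlier results of these data known, so it is no independent check. Over the whole list, 22 of 23 had a higher CPM in eWAT_DFAT members than in other cells, and the 1 that did not had no member UMI. In eWAT_DFAT 15 of them were measured, that is, reached 20 CPM in members or in other cells, and 12 of these 15 were at least 4-fold higher in members and 0 at least 4-fold lower. However, 11 of the 15 reached 20 CPM only in the members, so that for them a higher value was set by this filter, and of the 4 that reached it in other cells 1, Des, was at least 4-fold higher. The median log2 ratio of the 15 was 4.30, against 0.04 over all 6710 genes at that level, and is a description for the same reason. The same holds for the counts of other lists: a gene at 20 CPM in 1 set alone had to be higher there. Of those 6710 genes, 207 or 3.08% were at least 4-fold higher in members, a share given as background to every count of higher genes in this library.

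The surface genes Notch3, Cspg4 and Mcam were found in most members. Notch3 stood at 0 to 833.9 CPM per member with a median of 103, and at 139 CPM summed against 4.97 CPM in other cells, a log2 ratio of 4.80 (4.53 to 5.07). Cspg4, the NG2 proteoglycan of mural cells, stood at 84.4 against 2.52 CPM, and Mcam, the adhesion molecule CD146, at 119 against 5.63 CPM. All 43 members held a UMI of at least 1 of these genes. Thinned to 5000 UMIs per cell, so that depth could not differ, Notch3 was found in 51.2% of members (35.5 to 66.7%) and 2.63% of other cells. Its share was 4.05% in the endothelial marker cells, those with 3 or more endothelial genes. Cspg4 was found in 25.6, 1.17 and 4.05% of the same sets. Mcam was found in 51.2% of members, 3.41% of other cells and 43.9% of the endothelial marker cells, in which it is also made. At full depth Notch3 was found in 69.8% of members with a median of 18865 UMIs and in 7.43% of endothelial marker cells with a median of 11811. The endothelial marker cells include the 7 left out of the members by the endothelial limit. Notch3 stood at 110 CPM in these 7, against 12.4 CPM in the whole endothelial set.

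Mitochondrial and cytoskeletal genes of the list were higher as well. Ndufa4l2, a subunit of the respiratory chain induced by low oxygen and typical of pericytes, stood at 120 CPM in members against 6.10 CPM in others, a log2 ratio of 4.30 (4.02 to 4.58). Cox4i2, a lung and mural isoform of cytochrome oxidase, had a log2 ratio of 3.28 (2.86 to 3.68), and Des, the muscle filament desmin, one of 2.39 (2.20 to 2.58). Rgs4, which belongs to the same regulator family as Rgs5, stood at 78.2 against 2.05 CPM, and 27 of 43 members held it. Pdgfrb, which most stromal cells of the culture also make, stood at 219 against 84.2 CPM, a log2 ratio of 1.38 (1.18 to 1.58), and the mural factor Tbx18 at 78.2 against 28.6 CPM. Steap4 was 4-fold higher only through a single cell: 65.5% of its 29 UMIs lay there, and without that cell its log2 ratio was 0.78.

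The genes most often used to tell brain pericytes from other mural cells were sparse. Abcc9 and Kcnj8, which form the vascular ATP-sensitive potassium channel, had 34 and 11 UMIs over the 43 members, 15 members held either and 3 held both. Higd1b had 7 UMIs in 5 members, Vtn 2 UMIs, and Atp13a5 none. Abcc9 nevertheless stood at 35.0 CPM in members against 0.455 CPM in others. Kcnj8 was found in 18.6% of members and 0.421% of other cells, and Higd1b in 11.6 and 0.187%. The channel genes and Higd1b were thus each found in a minority of members at this depth.

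Summed per cell, the 23 identity genes stood at 425 to 2979 CPM in the eWAT_DFAT members with a median of 1538, against a median of 206 and a 95th percentile of 569 in other cells. The sum exceeded that percentile in 42 of 43 members. A member held 6 to 15 of the 23 genes with a median of 10, and other cells a median of 3. In the smaller sets the sum exceeded the 95th percentile of other cells in 2 of 4 iWAT_DFAT members, in 2 of 4 eWAT_SVF members and in the iWAT_SVF member, and the median of other cells in all 9.

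**Figure D2:**
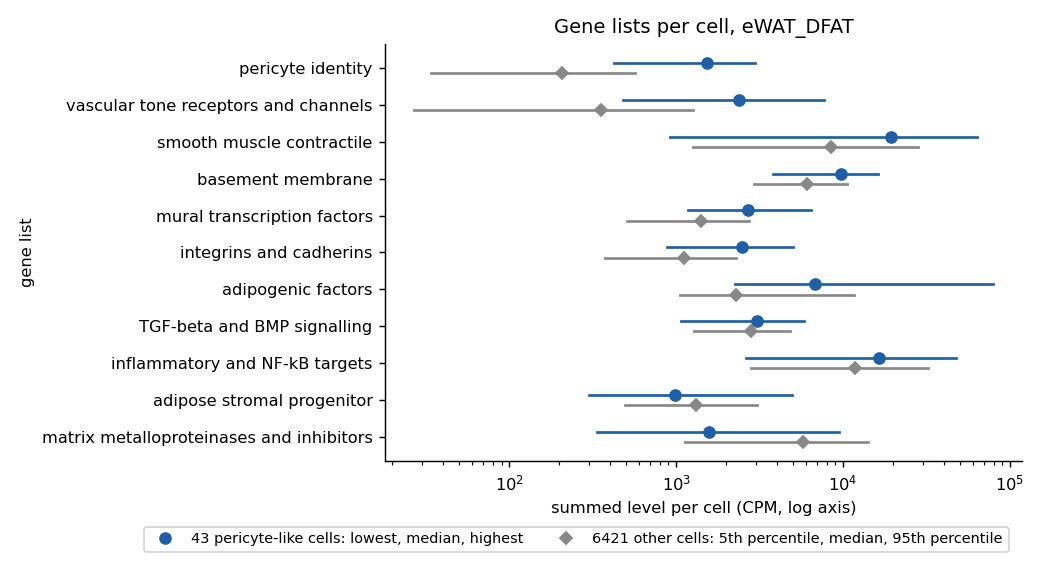
Summed level of 11 gene lists per cell in the eWAT_DFAT library (CPM, log axis). Blue lines run from the lowest to the highest of the 43 pericyte-like cells with a point at the median, and grey lines from the 5th to the 95th percentile of the 6421 other cells with a diamond at the median. Pericyte identity and vascular tone genes lie almost wholly above the other cells, and matrix metalloproteinases and their inhibitors lie low.

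The 9 members outside eWAT_DFAT were not alike. In iWAT_DFAT, the first cell, with 7233 UMIs, held 7 Abcc9 UMIs and 1 of Notch3, and the second, with 19016, held 5 of Notch3, 11 of Mcam and 138 of Acta2, the smooth muscle actin. The other two cells, with 23453 and 24812 UMIs, held no UMI of Notch3, Mcam, Gucy1a1 or Gucy1b1, and held 19 and 7 UMIs of Mmp9 and 17 and 2 of Dcn, the proteoglycan decorin of fibroblasts. The last of them held 2 UMIs of Cspg4, the only ones of that library, so 3 of 4 members held Notch3, Cspg4 or Mcam. Mural genes outside the rule were thus found mainly in 2 of the 4 cells. In iWAT_SVF, the single cell held 20 Rgs4 UMIs, 3 of Higd1b, 312 of Acta2 and 14 of Myh11, the smooth muscle myosin. In eWAT_SVF, the 4 cells held 1, 2, 4 and 3 Notch3 UMIs, 2, 2, 11 and 4 of Cspg4, and 2, 14, 9 and 2 of Mcam. The first 3 of them held 1, 13 and 3 of Higd1b, and the last held none, with 4 UMIs of Pdgfra.

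Across libraries, 5563 genes outside and inside the rule reached 20 CPM in the higher sum of each library, and 33 of them, or 0.593%, were at least 4-fold higher in members in all 4. Of the 33, 4 were genes of the rule (Rgs5, Adgrf5, Sparcl1 and Ednra) and 29 were not. Of the 29, 16 rested on 3 or fewer member UMIs in at least 1 library, and 17 had a counting interval above 0 in all 4. In the other direction 1 gene, Ly6a, or 0.018%, was at least 4-fold lower in all 4. The filter bears on these counts too: a gene that reached 20 CPM only in members had to be higher there. In iWAT_SVF 1 UMI of the single member was already 32.6 CPM.

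Outside the rule, the gene furthest above other cells in its weakest library was Inpp4b, a phosphoinositide 4-phosphatase. It held 4, 78, 7 and 31 member UMIs in iWAT_DFAT, eWAT_DFAT, iWAT_SVF and eWAT_SVF, and its log2 ratios were 5.87, 5.91, 7.77 and 8.10. In eWAT_DFAT it was found in 26 of 43 members, at 80.3 against 1.34 CPM. Rgs4 had log2 ratios of 4.74, 5.25, 7.75 and 7.85 in the same order, and Bmp2, a bone morphogenetic protein ligand, 6.07, 4.46, 8.64 and 7.43, the latter on 3, 26, 3 and 10 UMIs. The order of these genes within a library is not resolved, since the intervals of the 3 smaller libraries span several log2 units.

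The other leading genes had varied roles. Itga1, the collagen-binding integrin α1, stood at 350 against 16.1 CPM in eWAT_DFAT and had log2 ratios of 4.87, 4.44, 3.74 and 2.78. Mcam had 6.70, 4.41, 3.40 and 3.70, and Esam, a junction molecule shared with endothelium, 5.29, 3.54, 4.65 and 3.67. Aspn, the small proteoglycan asporin, stood at 97.8 against 2.10 CPM in eWAT_DFAT, and Synpo2, an actin-bundling protein of muscle, at 88.5 against 7.58 CPM. Pdgfa, a ligand of Pdgfra, was found in all 43 eWAT_DFAT members with 1 to 40 UMIs and had ratios between 2.96 and 3.53 in all 4 libraries. Of 9 integrin and cadherin genes measured in eWAT_DFAT, Itga1 was past 4-fold higher and Cdh11, a cadherin of mesenchymal cells, past 4-fold lower. Itga1 reached 20 CPM only in members, and of the 7 that reached it in other cells 0 were at least 4-fold higher. Sgip1, an endocytic protein, had ratios between 3.62 and 7.34, and Trarg1, a regulator of glucose transporter traffic, between 3.44 and 8.97. The list of 15 was completed by Gucy1a1, Gucy1b1, Notch3 and the RNA 4833422C13Rik, annotated as antisense.

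**Figure D3:**
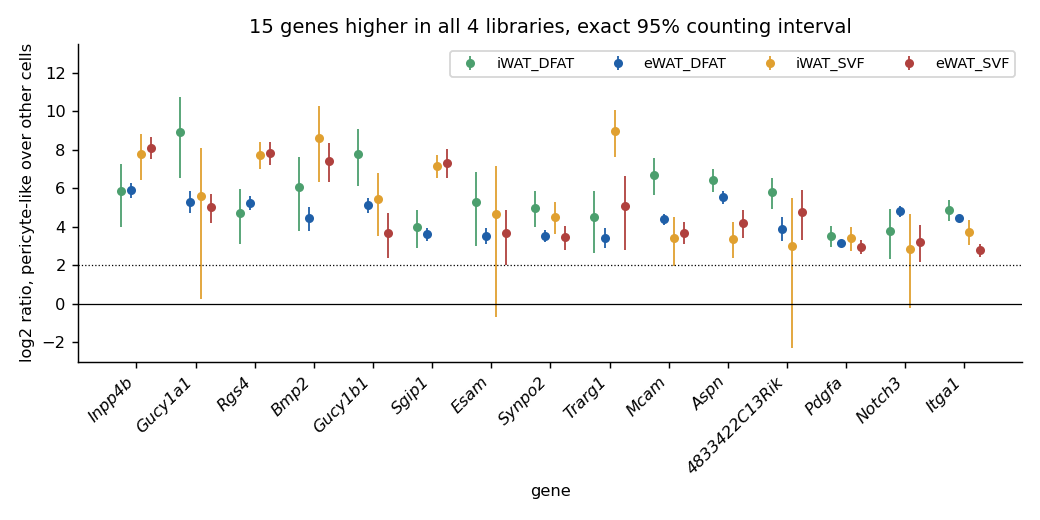
Log2 ratio of pericyte-like over other cells for the 15 genes outside the rule with the largest value in their weakest library, 1 point per library with its exact 95% counting interval. The dotted line marks 4-fold, and every point lies above it. The intervals are wide for the single iWAT_SVF cell.

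Of 21 genes for the control of vascular tone outside the rule, 18 had a higher CPM in eWAT_DFAT members than in other cells and 3 a lower one. Of the 12 measured, 9 were at least 4-fold higher in members and 0 lower, with a median log2 ratio of 3.78, but 8 of the 12 reached 20 CPM only in members. Of the 4 that reached it in other cells, 2 were at least 4-fold higher. Among receptors, Ednrb, the endothelin B receptor, stood at 37.1 against 1.72 CPM, in 12 of 43 members. Agtr1a, the angiotensin II receptor, stood at 70.0 against 3.27 CPM in eWAT_DFAT, in 27 members. P2rx1, an ATP-gated channel of smooth muscle, stood at 21.6 against 0.358 CPM, on 21 UMIs in 7 members, of which 33.3% lay in 1 cell. Agtr1a was not higher in every library: in iWAT_DFAT it stood at 13.4 CPM in members, on 1 UMI, against 30.9 CPM in others.

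Transcripts of the nitric oxide and cGMP route were counted as follows. Gucy1b1 stood at 70.0 against 1.98 CPM in eWAT_DFAT, a log2 ratio of 5.14 (4.75 to 5.52), and Gucy1a1 at 36.0 against 0.910 CPM, a ratio of 5.31 (4.74 to 5.84). Either subunit was found in 35 of 43 members and both in 14, and after thinning Gucy1b1 was found in 30.2% and Gucy1a1 in 16.3%. In the other libraries the ratios of Gucy1b1 were 7.78 in iWAT_DFAT, 5.43 in iWAT_SVF and 3.69 in eWAT_SVF, on 5, 4 and 7 UMIs. Gucy1a1 held 3, 1 and 16 member UMIs in the same order. In every library both genes reached 20 CPM only in members, so that a higher value was set by this filter. Both subunits are needed for an active enzyme. Prkg1, the kinase that cGMP activates, stood at 111 to 3811 CPM in every eWAT_DFAT member and at 1363 against 154 CPM summed. Pde3a, a phosphodiesterase that cGMP inhibits, stood at 504 against 122 CPM, and Cacna1c, the L-type calcium channel, at 338 against 93.0 CPM. Per cell, the sum of 21 tone genes stood at 481 to 7666 CPM with a median of 2391 in members and a median of 354 in others, and exceeded the 95th percentile of others in 42 of 43.

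Contractile genes divided. In eWAT_DFAT 4 of 14 were at least 4-fold higher in members, with a median log2 ratio of 1.22. Of the 14, 2 reached 20 CPM only in members, and of the 12 that reached it in other cells 2 were at least 4-fold higher. Ppp1r14a, an inhibitor of myosin phosphatase, stood at 514 against 29.5 CPM, and Myh11 at 487 against 55.0 CPM, a ratio of 3.15 (3.01 to 3.28). Acta2 stood at 8746 against 2825 CPM, but it ran from 0 UMIs in 4 members to 796 UMIs. Cnn1, calponin, with 117 against 111 CPM, and Actg2, the enteric smooth muscle actin, with 80.3 against 89.0 CPM, had log2 ratios of 0.08 (-0.20 to 0.35) and -0.15 (-0.49 to 0.17). The 4 members without Acta2 had 7396 to 11140 UMIs. The summed contractile level exceeded the 95th percentile of other cells in 14 of 43 members, fewer than for identity or tone genes. In the SVF cultures, where other cells made much Acta2, its ratio was 0.22 in iWAT and 0.37 in eWAT.

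**Figure D4:**
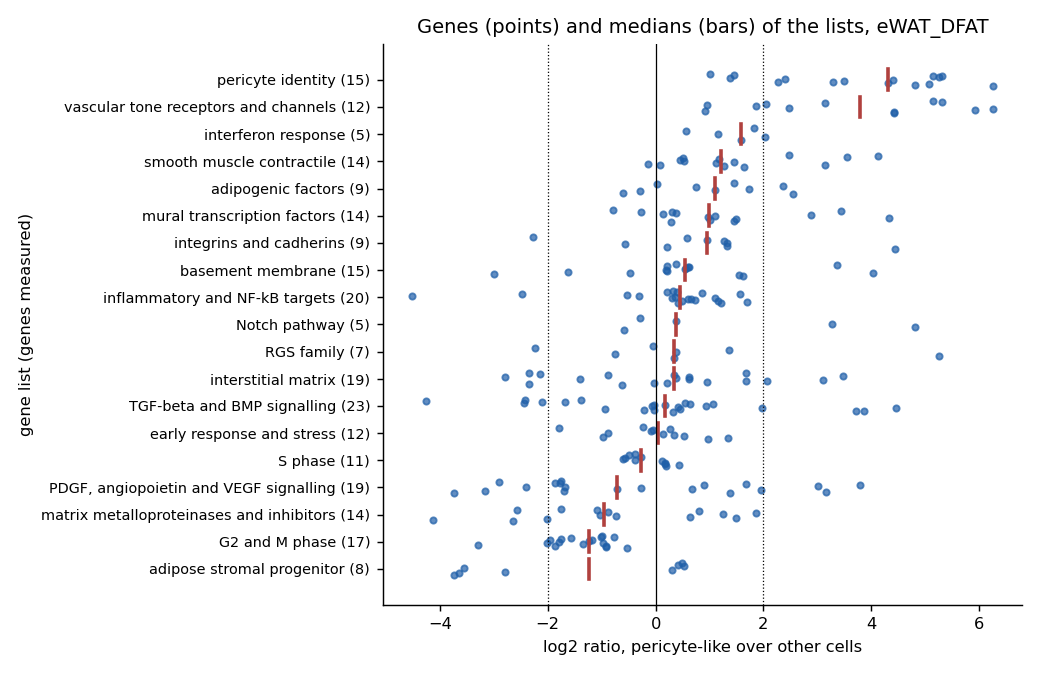
Log2 ratio of pericyte-like over other cells in the eWAT_DFAT library for the genes of each list with 5 or more genes measured outside the rule (points) and the median of the list (red bars). Dotted lines mark 4-fold in either direction. Pericyte identity, of whose 15 measured genes 11 reached 20 CPM only in members, has the highest median, 4.30. Adipose stromal progenitor genes and G2 and M phase genes have the lowest, each -1.24.

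In the growth factor list, members were above other cells in Pdgfa and Flt1 and below them in Pdgfra. In eWAT_DFAT 3 of 19 genes were at least 4-fold higher and 4 at least 4-fold lower, beside 2.67% of all genes lower at that fold (179 of 6710). Of the 19, 3 reached 20 CPM only in members and 8 only in other cells. Among the 16 that reached it in other cells, 1 was at least 4-fold higher. Pdgfra stood at 7.21 CPM in members against 95.6 CPM in others, a log2 ratio of -3.73 (-5.05 to -2.69), and 38 of 43 members held none. After thinning it was found in 4.65% of members and 34.8% of other cells. Pdgfa stood at 603 against 67.6 CPM. Flt1, a VEGF receptor that is also a decoy for its ligand, stood at 247 against 17.9 CPM, in 32 members, and Pgf, a ligand of Flt1, at 29.9 against 3.71 CPM, with 48.3% of its 29 UMIs in 1 cell. Lower were Pdgfc with a ratio of -3.17, Cxcl12, the ligand of the receptor Cxcr4, with -2.91, and Vegfc, a growth factor of lymphatic vessels, with -2.41. Angpt2, an angiopoietin, stood at 41.2 against 10.7 CPM, and Vegfa at 48.4 against 80.0 CPM.

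Of 5 Notch genes measured in eWAT_DFAT, only Notch3 and its ligand Jag1 were past 4-fold. Both reached 20 CPM only in members, and of the 3 that reached it in other cells 0 were past 4-fold. Jag1 stood at 59.7 against 6.19 CPM, a log2 ratio of 3.27 (2.86 to 3.65), in 23 of 43 members. Rbpj, with a ratio of -0.30, Hes1, a Notch target, with 0.38, and Notch2, with -0.59, lay within 4-fold. Heyl, a mural Notch target, had 5 UMIs over all 43 members and was below 20 CPM. The regulators of the Rgs family likewise stood apart by member: Rgs4 was higher, Rgs17 stood at 8.23 against 38.7 CPM, and the other 5 measured lay within 4-fold, Rgs16 among them at 236 against 91.8 CPM.

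Among TGF-β and BMP genes, the genes past 4-fold on the higher side were ligands. Of 23 measured in eWAT_DFAT, 3 were at least 4-fold higher and 4 at least 4-fold lower. Of the 23, 3 reached 20 CPM only in members and 2 only in other cells. Among the 20 that reached it in other cells, 1 was at least 4-fold higher. Tgfb2 stood at 582 against 39.8 CPM, a log2 ratio of 3.87 (3.74 to 3.99), with 0 to 34 UMIs per member and a UMI in 37 of 43. Tgfb3 stood at 167 against 12.7 CPM, and Bmp2 at 26.8 against 1.22 CPM. Among the lower genes were Grem1, which binds and blocks BMPs, with a ratio of -2.11 and most of its 10 UMIs in 1 cell, Inhba, the activin A subunit, with -2.43, and Ltbp2, a matrix protein of the latent TGF-β binding family, with -2.41. The receptors Tgfbr1 and Tgfbr2 had ratios of -0.22 and -0.04. Grem1 in iWAT_DFAT and Inhba in iWAT_DFAT went the other way, with ratios of 3.04, on 1 UMI, and 1.62. Tgfb2 stood nearer to other cells in the inguinal libraries. It was at 53.7 against 33.4 CPM in iWAT_DFAT, on 4 UMIs in 1 cell, and at 97.9 against 60.5 CPM in iWAT_SVF, on 3 UMIs. In eWAT_SVF it was at 513 against 68.3 CPM. Within eWAT_DFAT, Tgfb2 stood at 211 CPM in the endothelial marker cells and at 108 CPM in other cells with 10 or more Myh11 UMIs.

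Matrix genes lay on both sides of the other cells. Col18a1, the precursor of endostatin, stood at 317 against 19.4 CPM in eWAT_DFAT, a log2 ratio of 4.03 (3.86 to 4.20), in 41 of 43 members, and at 282 against 33.1, 97.9 against 31.7 and 479 against 14.9 CPM in iWAT_DFAT, iWAT_SVF and eWAT_SVF. Agrn, agrin, stood at 39.1 against 3.80 CPM in eWAT_DFAT. Col4a1 and Col4a2, the main chains of basement membrane collagen, were within 4-fold, with ratios of 1.63 and 1.54, and Col4a5 was lower, at 12.35 against 98.8 CPM. In all, 2 of 15 basement membrane genes were at least 4-fold higher in eWAT_DFAT and 1 at least 4-fold lower. Of the 12 that reached 20 CPM in other cells, 0 were at least 4-fold higher and 1 at least 4-fold lower. Of 19 interstitial genes 3 were higher and 4 lower, and the list medians were close, at 0.55 for basement membrane and 0.34 for interstitial genes. Col5a3, a fibrillar collagen chain outside the leading 15, was past 4-fold higher in all 4 libraries. Col6a3, a chain of the pericellular type VI collagen, stood at 633 against 73.9 CPM and was past 4-fold in all 4 libraries, and Postn, periostin, stood at 556 against 49.9 CPM. Col1a2 stood at 178 against 906 CPM, Dcn at 37.1 against 256 CPM, and the crosslinking enzymes Lox and Loxl1 had ratios of -2.14 and -2.34. In iWAT_DFAT, by contrast, Col1a2 had a ratio of 0.64, and Col3a1 one of 1.73 against -0.02 in eWAT_DFAT.

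Of 14 matrix metalloproteinase and inhibitor genes outside the rule, 0 were at least 4-fold higher in eWAT_DFAT members and 4 at least 4-fold lower. Timp1, the inhibitor of metalloproteinases, stood at 899 against 5310 CPM, a log2 ratio of -2.56 (-2.66 to -2.47), and Mmp3, a stromelysin, at 10.3 against 179 CPM, with a UMI in 4 of 43 members. Mmp2 and Mmp10 had ratios of -2.64 and -2.01. The summed level of the list exceeded the median of other cells in 1 of 43 members. Mmp9, which the rule used, was not counted in this list.

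Transcription factors of mural cells were mostly within 4-fold. In eWAT_DFAT 3 of 14 were past it, all higher. Of the 14, 3 reached 20 CPM only in members, and of the 11 that reached it in other cells 1 was at least 4-fold higher. Meox2, a homeobox factor of vascular cells, stood at 32.9 against 1.64 CPM, Epas1, the hypoxia factor HIF-2α of pericytes and endothelium, at 283 against 26.1 CPM, in 41 members, and Mef2c, a muscle and vascular factor, at 41.2 against 5.61 CPM. Foxs1, a forkhead factor of mural cells, stood at 86.5 against 43.1 CPM in eWAT_DFAT and had a log2 ratio of 5.19 in iWAT_DFAT, at 80.5 against 2.21 CPM.

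Of 9 adipogenic genes measured in eWAT_DFAT, 2 were at least 4-fold higher in members and 7 within 4-fold, and 6 of all 16 listed stood below other cells. Pparg, the master factor of adipogenesis, stood at 404 against 69.4 CPM in eWAT_DFAT, a log2 ratio of 2.54 (2.39 to 2.69), with a UMI in 35 of 43 members, and Cd36, a fatty acid transporter of capillary and fat cells, at 372 against 72.7 CPM. Fabp4, a fatty acid binding protein of both adipocytes and capillaries, was found in all 43 with 7 to 1695 UMIs. Fabp4 stood at 6971 against 2106 CPM there, under 4-fold, and its ratio was 3.87 in iWAT_DFAT, 4.82 in iWAT_SVF and 3.31 in eWAT_SVF. In iWAT_DFAT, 2 of 4 members held no Fabp4 UMI. Markers of the mature adipocyte lay on both sides: of all 10 listed, 5 stood above other cells and 4 below. Adipoq was held by 1 of 43 members, with 13 UMIs, and that cell held the 1695 Fabp4 UMIs as well as 332 of the 888 Saa3 UMIs. Over 4 adipocyte genes measured, 0 were at least 4-fold higher, and Car3, carbonic anhydrase 3, was lower on 1 UMI.

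Markers of other cell types stood as follows in the eWAT_DFAT members. Of 8 stromal progenitor genes measured, 0 were at least 4-fold higher and 4 at least 4-fold lower, namely Pdgfra, Ly6a (the antigen Sca-1), Dcn and Mfap5, a microfibril protein. The 4 others measured lay above other cells within 4-fold, and of all 18 listed 6 stood above and 12 below. Ly6a stood at 3.09 against 38.8 CPM, 40 of 43 members held none, and its log2 ratios were -3.61, -3.65, -3.33 and -3.19 in the order of libraries used above. Outside eWAT_DFAT these ratios rest on 5, 1 and 2 member UMIs. The summed progenitor level stood at 303 to 4951 CPM per member with a median of 990, against 1324 in other cells.

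Of 9 endothelial genes outside the rule, 3 were measured, and Flt1 and Esam were past 4-fold while Eng, endoglin, stood at 182 against 46.2 CPM. Flt1 and Esam reached 20 CPM only in members. The summed level of the 9 was 74.0 to 2120 CPM with a median of 396 in members, against 36.6 in all other cells and 2429 in the endothelial marker cells. It lay above the median of other cells in 43 of 43 members and above their 95th percentile of 267 CPM in 30. Gene by gene, Flt1, Eng and Esam stood above other cells and the other 6 of the 9 below, 4 of these with no member UMI. Pecam1 and Cdh5 were at 0, but the rule used both to leave out endothelial cells, so their absence is set in part by the selection. Emcn, which the rule limited in the same way, was found in 12 members with 43.8% of its 32 UMIs in 1. Mesothelial genes stood at 0 to 231 CPM per member with a median of 0, with Krt19 at 26.8 against 3.63 CPM and Wt1 at 3.09 against 20.2 CPM. None of the 11 glial or 10 immune genes reached 20 CPM, and their summed levels ran from 0 to 58.5 and from 0 to 270 CPM per member, with medians of 0. The part of other cell types in the members' profile was not tested.

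Depot identity genes were sparse in eWAT_DFAT members. Tbx20, a T-box factor best known from the heart, was the gene outside the rule with the highest ratio in eWAT_DFAT, at 32.9 against 0.173 CPM, a log2 ratio of 7.57 (6.82 to 8.32). Its 32 UMIs lay in 12 of 43 members, and without the cell with most of them the ratio was 7.24. In eWAT_SVF 2 of 4 members held 1 UMI each, and the inguinal members held none. Wt1, the factor of epididymal fat and mesothelium, had 3 UMIs over the 43 members, a ratio of -2.71 (-4.99 to -1.16), while Gata6 stood at 15.4 against 37.8 CPM. Of 4 visceral factors measured, Tbx20 was past 4-fold higher and Wt1 past 4-fold lower, and of 2 inguinal factors measured 0 were past 4-fold. Tbx15, an inguinal factor, had 7 UMIs over 3 of 4 iWAT_DFAT members, at 93.9 against 91.3 CPM in other cells. Of the 7, 5 and 1 lay in the cells without Notch3, and 1 in the first cell. Tbx15 had 0 over the 43 eWAT_DFAT members, against 0.374 CPM in other cells. Shox2, also inguinal, stood at 107 against 69.0 CPM in iWAT_DFAT and at 11.3 against 0.466 CPM in eWAT_DFAT. Irx1, a further inguinal factor, had no UMI in iWAT_DFAT members, against 33.1 CPM in other cells.

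Beside Tbx20, the genes furthest above other cells in eWAT_DFAT included Gipr, the receptor of the incretin GIP, at 29.9 against 0.249 CPM and in 18 of 43 members, Stac, an adaptor of calcium channels, at 41.2 against 0.471 CPM, and Tmem273, an uncharacterised membrane protein, at 84.4 against 1.19 CPM in 29 members. Abcc9 and Inpp4b were also among them, with log2 ratios of 6.27 and 5.91. Of the Abcc9 UMIs, 10 lay in 1 cell, the member that held Adipoq. Of the 207 higher genes 201 lay outside the rule, and 148 of these 201 had an interval wholly above 4-fold. Without the member with most UMIs of the gene, 171 of the 201 remained past 4-fold. Ces4a was the extreme case, with all of its 22 UMIs in 1 cell, and Cdkn1c, an imprinted inhibitor of the cell cycle, had 35.6% of its 146 UMIs in 1 of 15 cells.

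The genes furthest below other cells were led by Pak3, Sdk1 and Asic3, each with 1 member UMI. Better counted were Slpi, a protease inhibitor, at 5.15 against 173 CPM, Slit2, a guidance ligand, at 14.4 against 325 CPM, and Spp1, osteopontin, at 186 against 4272 CPM, a log2 ratio of -4.52 (-4.74 to -4.31). Rbfox1 had no UMI in members, against 74.4 CPM in others, so its log2 ratio was at most -4.59 at a floor of 3 counts over the members. Cemip, a hyaluronan-degrading protein, stood at 17.5 against 220 CPM and Pdpn, podoplanin, at 23.7 against 287 CPM, and these were lower in all 4 libraries, if not 4-fold in each. Spp1 was lower by less in iWAT_DFAT, at 1154 against 1951 CPM, and in eWAT_SVF stood at 59.9 against 53.0 CPM. Of its 86 UMIs in iWAT_DFAT members, 61 and 23 lay in the cells without Notch3, and 1 in each of the others.

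All 17 genes of G2 and M phase lay below other cells in eWAT_DFAT, with a median log2 ratio of -1.24, though 10 of them reached 20 CPM only in other cells, and 2, Ccnb2 and Cenpe, were lower by at least 4-fold. Thinned to equal depth, Top2a was found in 18.6% of members (8.39 to 33.4%) and 27.9% of others, a value within that interval, and Mki67 in 9.30% of members (2.59 to 22.1%) and 26.8% of others, a value outside it. A UMI of Top2a or Mki67 was found in 14 of 43 members at full depth. The 11 S phase genes measured had a median of -0.27, and 0 of them were past 4-fold. In eWAT_SVF the summed G2 and M level had a median of 377 CPM in members and 147 CPM in other cells, all 4 members lay above the latter, and 3 of 4 held Top2a or Mki67.

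Inflammatory genes in eWAT_DFAT members lay mostly within 4-fold of other cells, with 16 of the 20 measured above them and 4 below. Of 20 NF-κB targets and chemokines measured, 0 were at least 4-fold higher and 2 at least 4-fold lower, Spp1 and the prostaglandin synthase Ptgs2, with a median log2 ratio of 0.46. Ccl2, a monocyte chemokine, stood at 82.5 to 19057 CPM in the 43 members and at 6751 against 3012 CPM summed. Cxcl1 stood at 2447 against 1051 CPM. Saa3, an acute phase protein, stood at 914 against 682 CPM, and at a log2 ratio of -0.21 without the cell that held 37.4% of its UMIs. In the 4 iWAT_DFAT members these genes were low: Ccl2 stood at 591 against 2817 CPM, Cxcl5 at 53.7 against 3348 CPM and Saa3 at 53.7 against 3116 CPM. Of 12 early response and stress genes, 0 were past 4-fold in either direction in eWAT_DFAT. Of 5 interferon response genes 1 was, Irf1, at 27.8 against 6.85 CPM. All 5 lay above other cells, with a median log2 ratio of 1.58, but 4 of them reached 20 CPM only in members. Of the 15 interferon genes in the data, 14 stood above other cells and 1 below.

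The members were set beside a pair of other cell sets of the eWAT_DFAT library: 280 other cells with 10 or more UMIs of Myh11, and 148 cells with a UMI in 3 or more of the 5 endothelial genes. The Myh11 set was formed after its values had been seen. Among contractile genes, Myl9, a myosin light chain, had a log2 ratio of members over this set of 0.04 (-0.07 to 0.14), Acta2 one of 0.35 (0.32 to 0.39), Cnn1 one of -1.80 and Actg2 one of -1.98. The ratio of Myh11, -0.14 (-0.28 to -0.01), is set in part by the selection. The members were above the Myh11 set in Notch3, at 139 against 6.27 CPM, a ratio of 4.47 (4.03 to 4.92), in Esam with 4.12, in Rgs4 with 3.91, in Cspg4 with 3.66 and in Col18a1 with 3.62. They were below that set in Pdgfra, at 7.21 against 81.7 CPM, and in Dcn with -2.20. The set leaves out the members themselves, so its low mural genes are in part set by how it was formed, and it stood above all other cells in Gucy1b1, at 9.01 against 1.98 CPM, and in Mcam, at 13.8 against 5.63 CPM. In eWAT_SVF, where 1498 other cells had 10 or more Myh11 UMIs, Notch3 stood at 85.6 CPM in the 4 members and 8.95 CPM in that set. Esam, Rgs4, Cspg4 and Col18a1 were also higher in these members. Des was lower, with -1.18 (-1.82 to -0.60), against 1.49 in eWAT_DFAT, and Acta2 was lower, with -0.33 (-0.41 to -0.26). Pdgfra, with -0.90 (-2.78 to 0.46), was not resolved there.

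Against the endothelial marker cells, whose median depth was 11811 UMIs, the members were higher in Myh11, with a log2 ratio of 3.75 (3.42 to 4.10), in Notch3 with 3.48, in Des with 2.96 and in Pdgfrb with 2.37. Esam was lower, with -2.27. Col18a1, with -0.13 (-0.32 to 0.06), Flt1, with 0.28 (0.05 to 0.51), and Mcam, with 0.36 (0.02 to 0.69), lay close to 0. Other contractile genes differed less than Myh11, with 2.09 (2.04 to 2.14) for Acta2, 0.65 (0.29 to 0.99) for Cnn1, 0.81 (0.68 to 0.94) for Myl9, 0.88 (0.44 to 1.32) for Actg2 and 1.01 (0.96 to 1.05) for Tagln, and the summed level of the 17 Notch genes had a median of 441 CPM in members and 394 CPM in endothelial marker cells. Rgs5 was found after thinning in 76.7% of members, which the rule required at full depth, and in 4.73% of the endothelial marker cells and 0.825% of all other cells. The endothelial marker cells include the 7 left out by the endothelial limit, so the mural genes of these 7 enter the ratios above. Rgs5 stood at 210 CPM in the 7, against 19.5 CPM in the whole endothelial set.

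**Figure D5:**
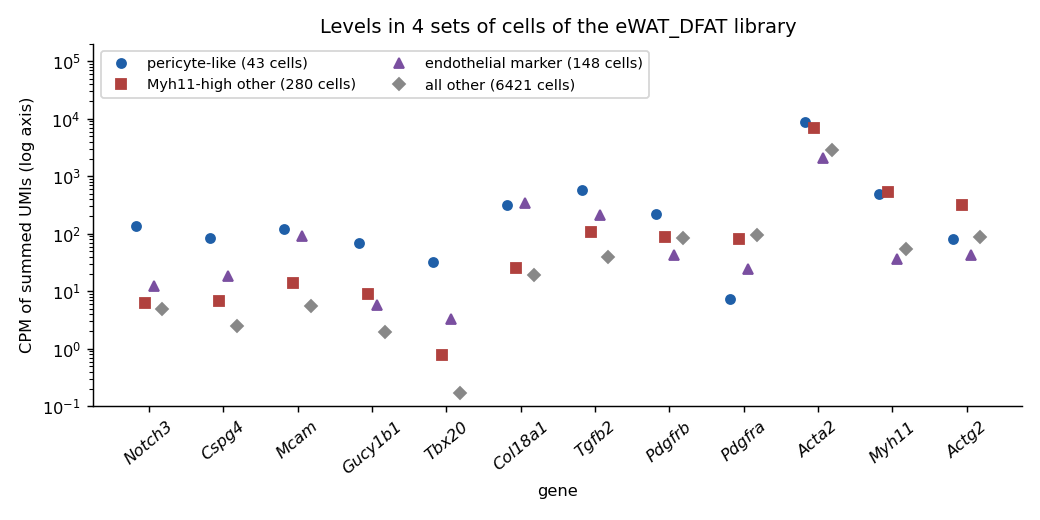
CPM of summed UMIs (log axis) for 12 genes in 4 sets of cells of the eWAT_DFAT library: 43 pericyte-like, 280 other cells high in Myh11, 148 endothelial marker cells and all 6421 other cells, of which the middle sets are part. Notch3, Cspg4, Gucy1b1 and Tbx20 are highest in pericyte-like cells, Pdgfra lowest, and Acta2 and Myh11 stand beside the Myh11-high cells.

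Between libraries only single values can be given, since 3 of them hold 1 to 4 members. Between eWAT_DFAT and eWAT_SVF members, Rgs5, on which the rule set a minimum of 2 UMIs at unequal depths, had a log2 ratio of 0.95 (0.17 to 1.85). Notch3 had one of 0.70 (-0.22 to 1.79) and Tgfb2 one of 0.18 (-0.21 to 0.59). Myh11 was lower in eWAT_DFAT members, with -1.03 (-1.32 to -0.72), beside -2.18 in the other cells of these libraries. Postn stood at 556 and 462 CPM in members, although it stood at 49.9 and 244 CPM in other cells. Saa3 stood at 914 CPM in eWAT_DFAT members and had no UMI in eWAT_SVF members, beside 682 and 81.0 CPM in the others. Spp1, at 4272 against 53.0 CPM in other cells, stood at 186 against 59.9 CPM in members. H2-K1, a class I antigen, stood at 288 against 17.1 CPM in members and at 84.5 against 85.6 CPM in other cells, the lower value resting on 2 UMIs.

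Between iWAT_DFAT and eWAT_DFAT members, Rgs5 had a log2 ratio of -0.02 (-0.83 to 0.69) and Pdgfrb one of 0.14 (-0.64 to 0.84). Rgs5 and Sparcl1 are genes of the rule, which bears on their levels here. Sparcl1 stood at 993 CPM in iWAT_DFAT members, with 42 of its 74 UMIs in 1 cell, and at 113 CPM in eWAT_DFAT members. Higher in iWAT_DFAT were Postn, at 1785 against 556 CPM, and Sorcs2, a sortilin-family receptor, with 26 UMIs against 1. Acta2, with -1.44 (-1.63 to -1.26), Tgfb2, at 53.7 against 582 CPM, and Cyp26b1, which degrades retinoic acid, at 13.4 against 314 CPM, were lower. In the other cells of these libraries the log2 ratio was -2.85 for Acta2, -0.25 for Tgfb2 and 2.17 for Cyp26b1. In Saa3 and Cxcl5 the members differed in the opposite direction to the other cells: Cxcl5 stood at 53.7 against 2198 CPM in members and at 3348 against 1566 CPM in the others. The 4 iWAT_DFAT members are the cells described above, of which 2 held no Notch3, so these values mix cells that differ in their mural genes.

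The inguinal members were also set beside each other. Mgp, matrix Gla protein, stood at 1973 CPM in the 4 iWAT_DFAT members and had no UMI in the iWAT_SVF cell, and Postn stood at 1785 against 163 CPM. Rarres2, the adipokine chemerin, stood at 3164 CPM in the iWAT_SVF cell, beside 5.03 CPM in the other iWAT_SVF cells. In iWAT_DFAT it went the other way, at 497 CPM in members against 929 CPM in other cells. In the eWAT_SVF members it stood at 111 CPM, above the other cells of that library. Rarres2 was found in all 43 eWAT_DFAT members, at 940 CPM, and is not set beside the other cells there. Cdkn1c had 90 UMIs in the iWAT_SVF cell. A single cell gives no measure of how such values vary.

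Within the members, no gene was seen to follow Rgs5 closely at thinned depth. Over all 52 members thinned to 5000 UMIs, the largest Spearman correlations with Rgs5 among 3892 genes were 0.43 for Ino80, 0.41 for Ppp2r2a, 0.40 for Mob4, 0.40 for Tor1b and 0.40 for Sash1. The cells share libraries and counts at this depth are sparse, with a UMI of these genes in 12 to 29 of 52 cells. The values are therefore descriptions, and a closer relation could have been missed.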

How the data were processed

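Single-cell RNA-seq libraries of 4 cultured cell populations were used, 1 library per group, with no replicate. The deposited files hold UMI counts per gene and droplet barcode, empty droplets included, which the authors made with Cell Ranger on mm10. Per the file headers, the version was 7.1.0 for 3 libraries and 4 for iWAT_SVF, while the submitters' processing notes name 7.0.0, and the study's methods state that reads from introns were counted. The study's own CellBender, DoubletFinder and clustering steps were not repeated. Members were selected on measured counts by the rule given in the report, and the members and the gene lists were chosen with earlier results of these data known. UMIs were summed over members and over other cells of a library and expressed as CPM. Genes with 20 CPM in the higher sum entered a log2 ratio, with an exact conditional binomial 95% interval, and a sum of 0 was set to a floor of 3 counts over the set, giving a bound. The threshold was 4-fold. Shares have exact Clopper-Pearson intervals. Intervals and floors cover counting error only, and no test was made, since cells of a library are not replicates. For detection, each cell was thinned to 5000 UMIs, which all cells had. Named genes were the 11 of the rule, the 15 highest and 10 lowest outside it by the weakest of the 4 libraries' ratios, the 5 at each end of each contrast between libraries at 50 CPM or more, the 5 most correlated with Rgs5, and examples from the gene lists. The genes named as furthest from other cells in eWAT_DFAT, the counts for eWAT_DFAT alone, values without the highest cell and the Myh11 comparison were chosen after seeing the data. Promoters came from RefSeq. The calculation was tested on simulated data. Doublets were kept, and removed only in an alternative. The tools were scanpy 1.11.5 (with its Scrublet), scipy 1.17.1 for intervals, pandas 2.3.3, matplotlib 3.10.9 for figures and numpy 2.4.6, under Python 3.11.15.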

Additional observations from a re-analysis of the deposited data

How the results depend on the processing

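No paired analysis was possible because each group has 1 library and no test was made. The share of pericyte-like cells depended on the rule. With 5 or more Rgs5 UMIs it was 0.263% in eWAT_DFAT, 0% in iWAT_SVF and 0.0148% in eWAT_SVF, and with 4 further markers 0% in iWAT_DFAT, 0.325% in eWAT_DFAT and 0% in iWAT_SVF. Applied after thinning to 5000 UMIs, it gave 0.0131% in iWAT_DFAT, 0.139% in eWAT_DFAT, 0% in iWAT_SVF and 0% in eWAT_SVF. In each of these settings eWAT_DFAT had the highest share. The count of genes higher in members was 39 to 53 when 1 library was left out, 53 without iWAT_DFAT, and 207 in eWAT_DFAT alone. The count of lower genes was 1 to 9, with 3 without iWAT_DFAT and 9 without iWAT_SVF, 2 without members holding Pdgfra, 2 with size factors and 179 in eWAT_DFAT alone. With 5 or more Rgs5 UMIs no count over 4 libraries was possible, for want of an iWAT_SVF member. Without the CPM minimum, eWAT_DFAT gave 1089 higher and 374 lower genes. Size factors shifted all ratios by 0.12 to 0.66 on the log2 scale. Between libraries, the Tgfb2 ratio of eWAT_DFAT over eWAT_SVF members was -0.57 with 5 or more Rgs5 UMIs and -0.21 without members holding Pdgfra, and that of Myh11 -1.32 without those members. That of Saa3 with 5 or more Rgs5 UMIs was a lower bound of 1.98, since the 1 eWAT_SVF member left held no Saa3 UMI. For iWAT_DFAT over eWAT_DFAT, Acta2 was -0.88 with 5 or more Rgs5 UMIs and Sparcl1 2.54 by the mean over cells. With 2 or more UMIs after thinning, Notch3 was found in 16.3%, Cspg4 in 4.65% and Mcam in 6.98% of eWAT_DFAT members. Of the gene ratios under the alternatives, 1654 stayed within their interval, 324 moved and 1 reversed, Steap4, at -0.30 with 5 or more Rgs5 UMIs. The cause of these shifts was not tested. The iWAT_DFAT, iWAT_SVF and eWAT_SVF values rest on 1 to 4 members each.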
